A study of Mus musculus with 12 samples.

Results

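The DEAD-box and DEAH-box RNA helicases were followed in IEC4.1 cells, a mouse intestinal epithelial cell line, after siRNA treatment against the lncRNA Nostrill and after IFN-γ. Members were the rows of the deposited tables whose symbol is Ddx or Dhx followed by a number and whose mean FPKM (fragments scaled to transcript length and library size) over the 12 libraries was at least 0.5. Ddx58 and Dhx58, the antiviral sensors RIG-I and LGP2, were left out by the rule. This gave 46 of 15002 genes, 31 with a Ddx and 15 with a Dhx symbol. Of 49 rows that fit the symbol rule, 3 lay below the floor. The nearest to it from below was Ddx60 at a mean FPKM of 0.445, and the nearest from above was Ddx19b at 1.17. All 46 passed the filter on low counts, and the lowest estimated count of a member in a library was 90.

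These enzymes use ATP to open short RNA duplexes or to remove proteins from RNA. DEAD-box proteins mostly act locally, prying apart a few base pairs and then letting go, while DEAH-box proteins move along a strand and usually need an activating partner, often one with a G-patch domain. They drive the rearrangements of the spliceosome, the stepwise assembly of ribosomal subunits in the nucleolus, and the export, translation and decay of mRNA. In an epithelial cell they belong to the housekeeping machinery, whereas their relatives RIG-I, MDA5 and LGP2 sense viral RNA and are interferon targets.

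The siR_Ctrl group received a scrambled control siRNA and no IFN-γ, and the siR_Ctrl + IFN-γ group the same siRNA followed by IFN-γ. The siR_Nostrill group received a pool of 3 siRNAs against Nostrill and no IFN-γ, and the siR_Nostrill + IFN-γ group that pool followed by IFN-γ. Each group had 3 libraries, all from wild-type cells of the one line. The methods give 24 h of transfection and 1 ng/ml IFN-γ for 4 h, while the labels give 24 h for each library. The knockdown was transient, and Nostrill itself was not analysed here, so its level was not used to check the labels.

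Each library held 17824306 to 19093204 reads assigned to genes. Of 7 intestinal markers, all 7 were listed and 0 exceeded a mean of 1 FPKM. Of 10 epithelial markers 5 were listed and 2 exceeded 1 FPKM, with Tjp1 highest at 9.02 FPKM and Krt8 and Krt18 under 1. The mesenchymal gene Vim had 1737 FPKM. The 6 mesenchymal markers summed to 1969 to 2194 FPKM in siR_Ctrl, 2385 to 2472 in siR_Ctrl + IFN-γ, 1931 to 2097 in siR_Nostrill and 2083 to 2217 in siR_Nostrill + IFN-γ cells, so siR_Ctrl + IFN-γ stood above the other groups without overlap. In TMM-normalised CPM (counts scaled to the effective library size) it did so too, at 5328 to 5767 against at most 5110, but in TPM it overlapped them, at 3000 to 3893 against 2678 to 3671 in siR_Ctrl. Immune markers summed to at most 0.03 and endothelial markers to at most 0.18 FPKM. A pair of libraries stood apart by transcript length, in opposite directions. In siR_Ctrl replicate 1 the longer members lay at 0.27 from their own mean over all libraries on the log2 scale (median of 23) and the shorter members at -0.02 (median of 23), and in siR_Ctrl + IFN-γ replicate 2 they lay at -0.14 and 0.14. Relations to length, and other values that moved by over 1.5 times, are also given without these libraries.

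The guide strands of the 3 Nostrill siRNAs are shown because an siRNA can also pair through its seed with other transcripts. The seed, bases 2 to 8 from the 5′ end, is in capitals.
Nostrill-1: aUUAAUGCuucuucccagg
Nostrill-2: aUUUGUGUguuccuggugg
Nostrill-3: aUUAGAACgacuuauaggc

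Of the 46 helicases, 12 (26.1%) held at least 1 perfect 7-base match to a seed in an annotated 3′UTR, against 29.2% of the 11577 tested genes with a 3′UTR. By siRNA, 3 helicases matched Nostrill-1 (6.52% against 9.29%), 7 matched Nostrill-2 (15.2% against 16.97%) and 4 matched Nostrill-3 (8.70% against 10.3%). Some matches in helicases that passed a test below are printed 5′ to 3′ on the mRNA strand with the match in capitals, in GRCm38 coordinates of the match and on GENCODE vM21 transcripts.
Dhx40, Nostrill-1, chr11:86769766-86769772, minus strand: tttgcattgaaGCATTAAagattattttc
Dhx40, Nostrill-2, chr11:86769388-86769394, minus strand: atatcacacacACACAAAgttctttttag
Ddx27, Nostrill-2, chr2:167025462-167025468, plus strand: tttctagtaacACACAAAaaacagtatta
Dhx8, Nostrill-2, chr11:101767141-101767147, plus strand: aaaagccacacACACAAAagaacaatcag

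Of the 3 helicases shown, Dhx40 alone had matches to 2 of the siRNAs. The Ddx27 match was in 1 of 2 annotated transcripts. The matches shown are not all of those counted, so a helicase without one here may still hold one. A helicase that passed a test below does hold a match that is not shown, so the list does not single out Dhx40, Ddx27 and Dhx8. A match is a stretch of sequence and was not shown to be a site of action.

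The median mean level of the helicases was 28.5 FPKM. The rule had set a floor on this value, and the 11035 tested genes above the same floor had a median of 13.6 FPKM, which 32 of the 46 exceeded. There were 6 members over 100 FPKM, 31 between 10 and 100 and 9 below 10, and the 6 highest held 44.8% of the members' summed mean FPKM. As a share of all FPKM in a library, the members took 0.336% ± 0.0655 in siR_Ctrl, 0.284% ± 0.0433 in siR_Ctrl + IFN-γ, 0.276% ± 0.0331 in siR_Nostrill and 0.290% ± 0.0227 in siR_Nostrill + IFN-γ cells (means and SD of 3 libraries). The ranges of the 4 groups overlapped in FPKM. As a share of reads, siR_Ctrl (0.611% to 0.726%) lay above siR_Nostrill + IFN-γ cells (0.541% to 0.604%) without overlap, while every other pair of groups overlapped.

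**Figure D1:**
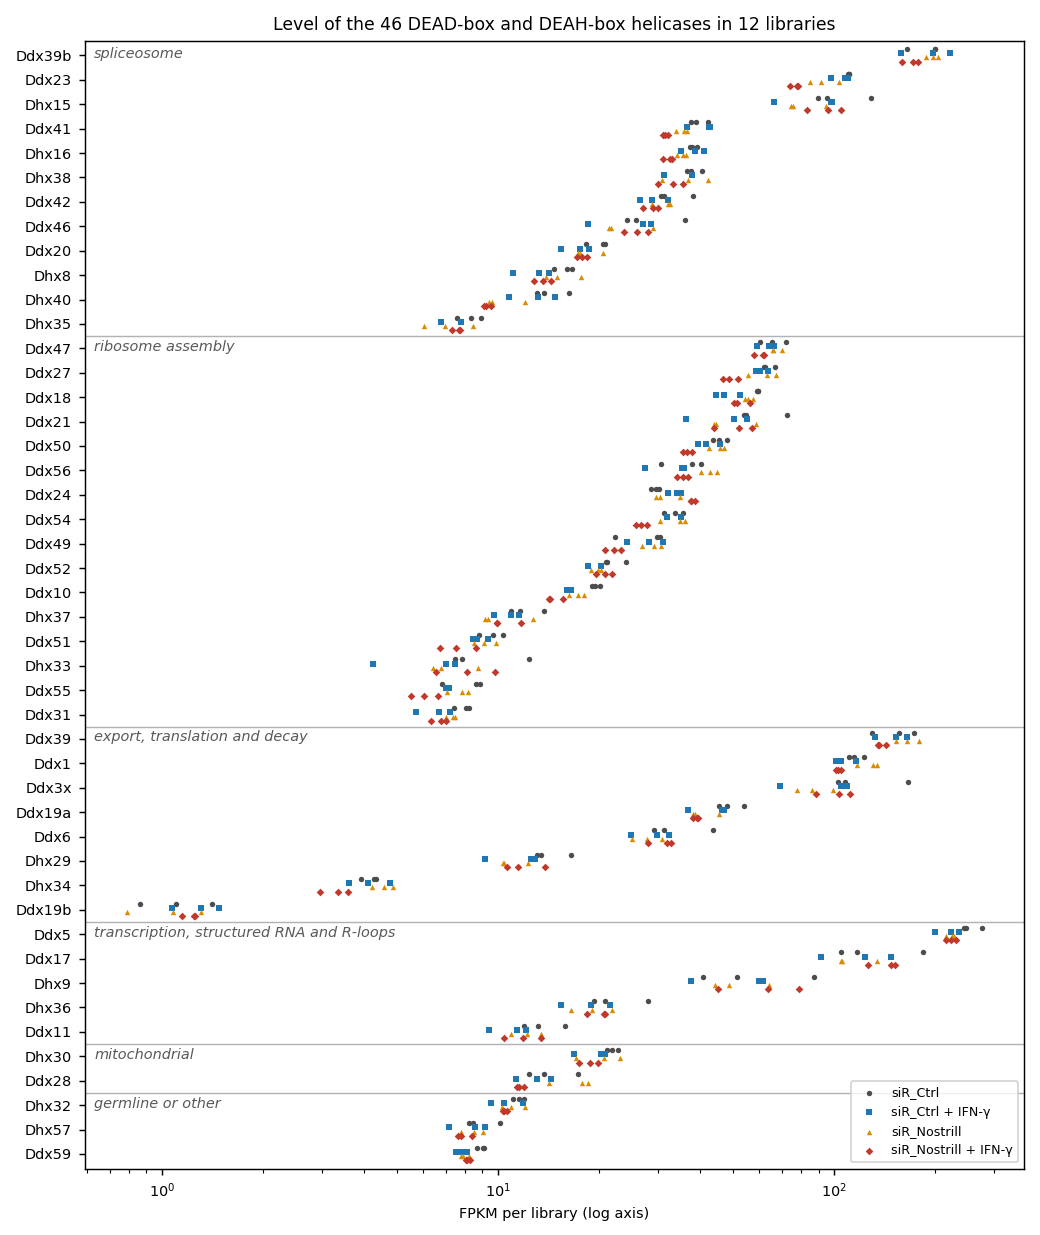
FPKM (log axis) of each of the 46 helicases in each of the 12 libraries, ordered by role and mean level, with 1 symbol per group. Levels ran from Ddx5, at 200.04 to 275 FPKM, down to Ddx19b, at 0.79 to 1.48 FPKM.

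The 6 most abundant members came from several roles. Ddx5 (p68; gene ID 13207, chromosome 11, 106780355 to 106789185, GRCm38.p6), a co-regulator of transcription and splicing, had a mean of 230.1 ± 19.0 FPKM (SD over 12 libraries). Its paralog Ddx17 (gene ID 67040, chromosome 15, 79527696 to 79546764) had 128 ± 26.1. Ddx39b (UAP56; gene ID 53817, chromosome 17, 35241746 to 35253707), which acts in spliceosome assembly and mRNA export, had 186 ± 20.2, and the related export factor Ddx39 (gene ID 68278, chromosome 8, 83715177 to 83726904) had 152 ± 16.7. Ddx1 (gene ID 104721, chromosome 12, 13219307 to 13249174), part of the tRNA ligase complex, had 113 ± 11.3, and Ddx3x (gene ID 13205, chromosome X, 13280496 to 13293988), which helps translation initiation, had 102 ± 24.3. Neighbours in this order overlapped in their ranges over libraries, from Ddx5 and Ddx39b (158 to 222) down to Ddx1 (101 to 135) and Ddx3x (69.3 to 167). At the other end stood the ribosome assembly factor Ddx31 (7.09 ± 0.694), Dhx34, a factor of nonsense-mediated decay (4.05 ± 0.588), and the nuclear pore export helicase Ddx19b (1.17 ± 0.207). Ddx31, Dhx34 and Ddx19b did not overlap, at 5.69 to 8.19, 2.95 to 4.87 and 0.79 to 1.48 FPKM.

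Members differed in how tightly replicates agreed. The within-group SD of log2 CPM (counts scaled to library size) had a median of 0.127 over the members and 0.185 over all genes tested. These medians were not matched for level, and the members were more abundant (median of 28.5 against 11.8 FPKM). The SD was lowest in Ddx5 (0.0492), the spliceosomal ATPase Dhx16 (0.0506) and Ddx23 (0.0566). It was highest in Dhx9 (0.371), a helicase of double-stranded RNA and R-loops, in Dhx33 (0.296), in the mitochondrial Ddx28 (0.240) and in Ddx3x (0.237). Dhx9 had TMM-normalised CPM of 366, 184 and 222 in the siR_Ctrl libraries, so the group spanned nearly the whole range of 183 to 366 seen over the 12 libraries.

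Paralogs were compared in FPKM, which scales to transcript length but does not remove the trend with length between libraries given below. The ratio of Ddx5 to Ddx17 was 1.97 ± 0.422 in siR_Ctrl, 1.87 ± 0.340 in siR_Ctrl + IFN-γ, 1.96 ± 0.238 in siR_Nostrill and 1.58 ± 0.123 in siR_Nostrill + IFN-γ cells (means and SD of 3 libraries). Ddx39b stood at 1.18 to 1.27 times Ddx39 by group mean, and the nucleolar helicase Ddx21 at 1.10 to 1.39 times its neighbour Ddx50. Ddx19a and Ddx19b lie next to each other on chromosome 8 (110974991 to 110997823 and 111003186 to 111031751), yet the first was listed at 45.0 ± 7.41 times the level of the second in siR_Ctrl, 33.9 ± 1.90 times in siR_Ctrl + IFN-γ, 39.6 ± 7.42 times in siR_Nostrill and 31.9 ± 1.14 times in siR_Nostrill + IFN-γ cells. The ratio was lower with IFN-γ within each siRNA without overlap. The ranges were 38.2 to 52.9 against 31.8 to 35.5 in siR_Ctrl and 34.8 to 48.1 against 31.0 to 33.2 in siR_Nostrill cells. The siRNAs overlapped within each state. Ddx19b had a low mean count of 137, with a Poisson error of 0.123 on the log2 scale in a single library. Ddx19a and Ddx19b also differ in effective length, at 2338 and 6383 bases. A difference of the ratio with IFN-γ was not tested, nor was the part of length in it. In the other 3 pairs the group ranges overlapped. Reads of near-identical paralogs may have been divided by the counting, so each of these ratios is uncertain. Ddx3y was not in the tables used here.

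The question whether Nostrill siRNA changed the helicases was asked without IFN-γ, with IFN-γ and as the average of both states. In the average over 6 against 6 libraries, Ddx23 and Dhx40 fell, and they were the only 2 of 46 helicases called, where called means a p under 0.05 by the quasi-likelihood test of edgeR after Benjamini-Hochberg adjustment over 11900 genes. The background was 2.16% of all genes tested in either direction and 1% called lower. There were 9 helicases lower and 0 higher at an unadjusted p under 0.05, against 8.21% and 8.34%. In TMM-normalised CPM both lay lower in each of the 6 siR_Nostrill libraries than in any control siRNA library. In FPKM they did so within each state but not across states, since siR_Nostrill replicate 3 (103.73 for Ddx23 and 12.04 for Dhx40) lay above siR_Ctrl + IFN-γ replicate 2 (97.7 and 10.8). In bulk RNA, fewer cells that express a gene and less RNA per cell cannot be told apart.

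**Figure D2:**
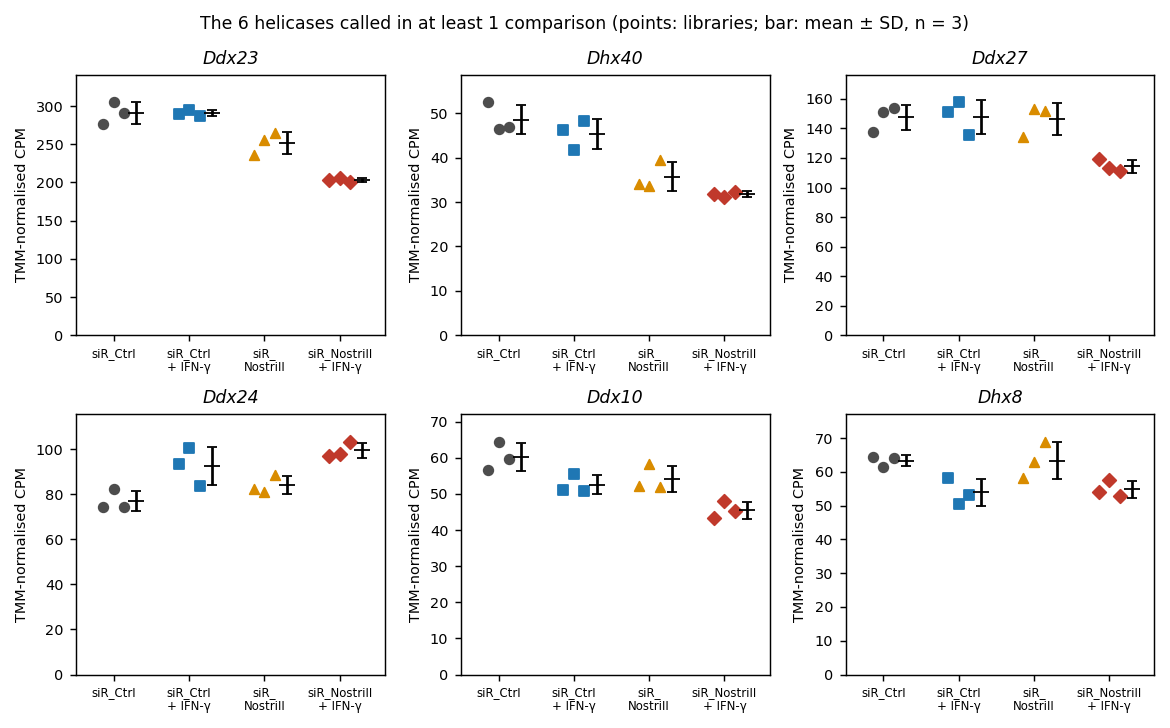
TMM-normalised CPM (axis from 0) of the 6 helicases called in at least 1 comparison, with each library as a point and the group mean ± SD as a bar (n = 3). Ddx23 and Dhx40 sit lower in all 6 siR_Nostrill libraries, Ddx27 is low in siR_Nostrill + IFN-γ cells, and Ddx24 is higher and Ddx10 and Dhx8 are lower with IFN-γ.

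Ddx23 (gene ID 74351, chromosome 15, 98645379 to 98662928) encodes the Prp28-type helicase of the U5 snRNP, which lets U6 replace U1 at the 5′ splice site when the spliceosome is activated. Its values in TMM-normalised CPM were 276, 305 and 290 in siR_Ctrl and 290, 294 and 287 in siR_Ctrl + IFN-γ cells. They were 236, 255 and 265 in siR_Nostrill and 203, 206 and 201 in siR_Nostrill + IFN-γ cells. The 6 control libraries formed one cluster, siR_Nostrill cells lay below it, and the siR_Nostrill + IFN-γ libraries were the lowest of all. The log2 fold change was -0.36 ± 0.05 (SE) over both states, a fall of 22.1% (adjusted p = 0.00634, edgeR). With IFN-γ it was -0.51 ± 0.07, a fall of 30.0% (adjusted p = 0.0171, edgeR), and without it -0.21 ± 0.07 (adjusted p = 0.286, edgeR), which did not pass.

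Dhx40 (gene ID 67487, chromosome 11, 86768849 to 86807877), a DEAH-box protein listed here with its spliceosomal relatives, had 52.4, 46.4 and 46.9 CPM in siR_Ctrl and 46.3, 41.7 and 48.3 in siR_Ctrl + IFN-γ cells. It had 34.2, 33.6 and 39.4 in siR_Nostrill and 31.9, 31.1 and 32.3 in siR_Nostrill + IFN-γ cells. The siRNA groups did not overlap in either state. Its log2 fold change was -0.48 ± 0.07 over both states, a fall of 28.3% (adjusted p = 0.00628, edgeR), -0.52 ± 0.09 with IFN-γ (adjusted p = 0.0430, edgeR) and -0.44 ± 0.09 without (adjusted p = 0.121, edgeR). The gene overlaps the lncRNA gene Gm42085 over 6818 bases, and no source used here says whether counting used the strand, so some of its reads may come from that locus. Ddx23 overlaps no annotated gene.

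The calls of Ddx23 and Dhx40 over both states held in all 12 fits that left out 1 library and in all 6 other settings, with adjusted p of at most 0.0315 and 0.0299 (edgeR or DESeq2). The calls with IFN-γ alone were less stable. Ddx23 lost it in 5 of the 12 fits, those without siR_Ctrl + IFN-γ replicate 1 or 2 or any siR_Nostrill + IFN-γ library, with an adjusted p of up to 0.122 (edgeR). Dhx40 kept it in 1 of the 12, that without siR_Ctrl replicate 1, and reached an adjusted p of 0.198 without siR_Nostrill + IFN-γ replicate 1 (edgeR). It also lost it with no filter on low counts (0.0667) and with a replicate block (0.0563, both edgeR adjusted p). Both genes lost the call in a fit on only the 6 libraries of these 2 groups, with adjusted p of 0.149 for Ddx23 and 0.204 for Dhx40 (edgeR), and 0% of the 11711 genes tested in that fit passed.

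With IFN-γ present, Ddx23 and Dhx40 were the 2 helicases called between the siRNAs, both lower, against 0.429% of all genes tested and 0.244% called lower. The summed mesenchymal markers also differed between these 2 groups, at 2385 to 2472 FPKM in siR_Ctrl + IFN-γ and 2083 to 2217 in siR_Nostrill + IFN-γ cells. In TMM-normalised CPM, the scale of the tests, they did not overlap either (5328 to 5767 and 4681 to 4948). In TPM they overlapped (3000 to 3893 and 3154 to 3262). The part of these markers in the helicase values was not tested. At an unadjusted p under 0.05, 12 helicases were lower and 0 higher, against 7.67% lower and 6.87% higher among all genes tested. The next in rank was Dhx16, the Prp2-type ATPase of spliceosome activation, with 123, 123 and 128 CPM in siR_Ctrl + IFN-γ and 95.2, 101 and 105 in siR_Nostrill + IFN-γ cells. These groups did not overlap, and the log2 fold change was -0.31 ± 0.07 (adjusted p = 0.0745, edgeR), which did not pass. Over both states it was -0.20 ± 0.05 (adjusted p = 0.0622, edgeR).

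Without IFN-γ, 0 helicases were called between the siRNAs by edgeR, against 0.218% of all genes tested. At an unadjusted p under 0.05, 8 were lower and 0 higher, against a background of 7.61% and 6.19%. DESeq2's Wald test called 2, which were Ddx23 and Dhx40, against 2.56% of the genes it tested. Besides these, the smallest p belonged to Ddx19a, the helicase that releases mRNA at the cytoplasmic face of the nuclear pore. It had 119, 109 and 110 CPM in siR_Ctrl and 91.1, 93.0 and 102 in siR_Nostrill cells, without overlap, and a log2 fold change of -0.24 ± 0.08 (adjusted p = 0.267, edgeR). Ddx3x had a larger difference, -0.49 ± 0.18 (adjusted p = 0.299, edgeR), but its 687 CPM in siR_Ctrl replicate 1 stood far above the 458 and 458 of the other libraries of that group. Without that library its difference was -0.27 ± 0.15 (adjusted p = 0.832, edgeR).

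The helicases with a 3′UTR match to a Nostrill seed were lower by a median of -0.19 on the log2 scale without IFN-γ (12 genes) and those without a match by -0.09 (34 genes). The same medians over all genes were -0.14 for 3385 with a match and 0.05 for 8192 without one. With IFN-γ the helicases with a match had a median of -0.06 and those without -0.09, against 0.01 and -0.01 over all genes. Over both states the medians were -0.13 and -0.09 in the helicases and -0.07 and 0.01 over all genes. The order without IFN-γ held with either of the libraries that stood apart left out, with medians of -0.10 and -0.06 in the helicases and -0.06 and 0.03 over all genes without siR_Ctrl replicate 1. Over both states the helicases turned to -0.08 and -0.09 without that library, while all genes kept the order (-0.02 and 0.01). With IFN-γ the order turned without siR_Ctrl + IFN-γ replicate 2, to -0.13 and -0.09 in the helicases and -0.04 and 0.01 over all genes. Genes with a match had longer transcripts, with a median of 3634 bases against 2354 over all genes, and the part of length in these medians was not tested.

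Whether IFN-γ changed the helicases was asked within each siRNA and as the average over both. Averaged over 6 against 6 libraries, Ddx24 rose and Ddx10 and Dhx8 fell. These were 3 of 46 helicases, against 9.21% of all genes called in either direction, 6.81% called higher and 2.4% called lower. There were 10 helicases lower and 1 higher at an unadjusted p under 0.05, against 8.48% and 11.5%.

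Ddx24 (gene ID 27225, chromosome 12, 103407976 to 103425847), a nucleolar helicase linked to assembly of the large ribosomal subunit, had 74.6, 82.2 and 74.4 CPM in siR_Ctrl and 93.7, 100.5 and 83.9 in siR_Ctrl + IFN-γ cells. It had 82.5, 81.1 and 88.7 in siR_Nostrill and 97.2, 98 and 103 in siR_Nostrill + IFN-γ cells. Within each siRNA the groups did not overlap. The log2 fold change was 0.25 ± 0.06 over both siRNAs, a rise of 19.3% (adjusted p = 0.0185, edgeR), with 0.27 ± 0.08 in siR_Ctrl (adjusted p = 0.125) and 0.24 ± 0.08 in siR_Nostrill cells (adjusted p = 0.123, both edgeR). The call held in 8 of 12 fits that left out 1 library and reached an adjusted p of 0.0573 in the others (edgeR), which were those without siR_Ctrl replicate 3, siR_Ctrl + IFN-γ replicate 1, siR_Nostrill replicate 2 or siR_Nostrill + IFN-γ replicate 3.

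Ddx10 (gene ID 77591, chromosome 9, 53098454 to 53248170), a factor of small subunit assembly, had 56.7, 64.4 and 59.8 CPM in siR_Ctrl, 51.1, 55.6 and 50.9 in siR_Ctrl + IFN-γ, 52.1, 58.3 and 51.9 in siR_Nostrill and 43.4, 48.0 and 45.2 in siR_Nostrill + IFN-γ cells. It fell by 0.22 ± 0.06 on the log2 scale over both siRNAs (adjusted p = 0.0394, edgeR). Dhx8 (gene ID 217207, chromosome 11, 101732956 to 101767358), the Prp22-type ATPase that releases spliced mRNA, had 64.3, 61.5 and 64.2 CPM in siR_Ctrl, 58.2, 50.4 and 53.2 in siR_Ctrl + IFN-γ, 58.1, 63.0 and 68.9 in siR_Nostrill and 54.1, 57.7 and 52.8 in siR_Nostrill + IFN-γ cells. It also fell by 0.22 ± 0.06 (adjusted p = 0.0476, edgeR). In both genes the groups did not overlap within either siRNA. Both calls were fragile. With no filter on low counts the adjusted p was 0.0561 for Ddx10 and 0.0757 for Dhx8 (edgeR), and that of Dhx8 was 0.0553 with a filter on mean FPKM and 0.0754 with a replicate block (edgeR). Each held in 2 of the 12 fits that left out 1 library, with adjusted p of up to 0.107 for Ddx10 without siR_Nostrill replicate 2 and 0.130 for Dhx8 without siR_Nostrill + IFN-γ replicate 3 (edgeR).

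In siR_Ctrl cells, IFN-γ called 0 of the 46 helicases in edgeR against 5.45% of all genes tested. At an unadjusted p under 0.05, 5 were lower and 1 was higher, against 6.03% and 8.61%. DESeq2's Wald test called Ddx24 and Ddx18, against 6.33% of its genes. Ddx18, a factor of ribosome assembly, had 113, 122 and 117 CPM in siR_Ctrl and 106, 99.4 and 93.0 in siR_Ctrl + IFN-γ cells, without overlap, and a log2 fold change of -0.24 ± 0.07 (adjusted p = 0.106, edgeR).

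In siR_Nostrill cells, IFN-γ lowered Ddx23 and Ddx27. These 2 were the helicases called, against 6.78% of all genes in either direction and 1.55% lower. At an unadjusted p under 0.05, 13 helicases were lower and 1 higher, against 10.2% and 11.7%. Ddx23 fell by 0.31 ± 0.07 on the log2 scale, or 19.3% (adjusted p = 0.0217, edgeR). Ddx27 (gene ID 228889, chromosome 2, 167015313 to 167034945), which acts in large subunit assembly, had 134, 153 and 152 CPM in siR_Nostrill and 119, 113 and 111 in siR_Nostrill + IFN-γ cells, without overlap, a fall of 0.36 ± 0.09 or 21.8% (adjusted p = 0.0298, edgeR). In siR_Ctrl cells Ddx27 had 138, 151 and 154 CPM without IFN-γ and 151, 158 and 135 with it. Next came Ddx1, with 267, 300 and 288 CPM in siR_Nostrill and 221, 225 and 236 in siR_Nostrill + IFN-γ cells, without overlap, and a log2 fold change of -0.33 ± 0.09 (adjusted p = 0.0636, edgeR), which did not pass. The calls of Ddx23 and Ddx27 held in 7 of 12 fits that left out 1 library and were lost without siR_Nostrill replicate 2 or 3 or any siR_Nostrill + IFN-γ library, with adjusted p of up to 0.0896 and 0.127 (edgeR). Without siR_Ctrl replicate 1 the count of helicases called was 4, against 9.47% of the genes tested in that fit. In a fit on only the 6 libraries of these 2 groups it was 8, against 17%.

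The difference between the responses to IFN-γ in both siRNAs was tested as an interaction, and 0 helicases passed in edgeR or in DESeq2, as did 0% of all genes tested in either tool. At an unadjusted p under 0.05 in edgeR, 5 helicases had an interaction against 10.7% of all genes. Ddx23 had the smallest p (interaction of -0.31 ± 0.10 on the log2 scale, unadjusted p = 0.00992, adjusted p = 0.430, edgeR). Then came Ddx54, a nucleolar factor, at -0.45 ± 0.15, and Ddx27 at -0.36 ± 0.12 (both adjusted p = 0.430, edgeR). So the lower levels of Ddx23 and Ddx27 with IFN-γ in siR_Nostrill cells alone were not shown to differ between the siRNAs.

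**Figure D3:**
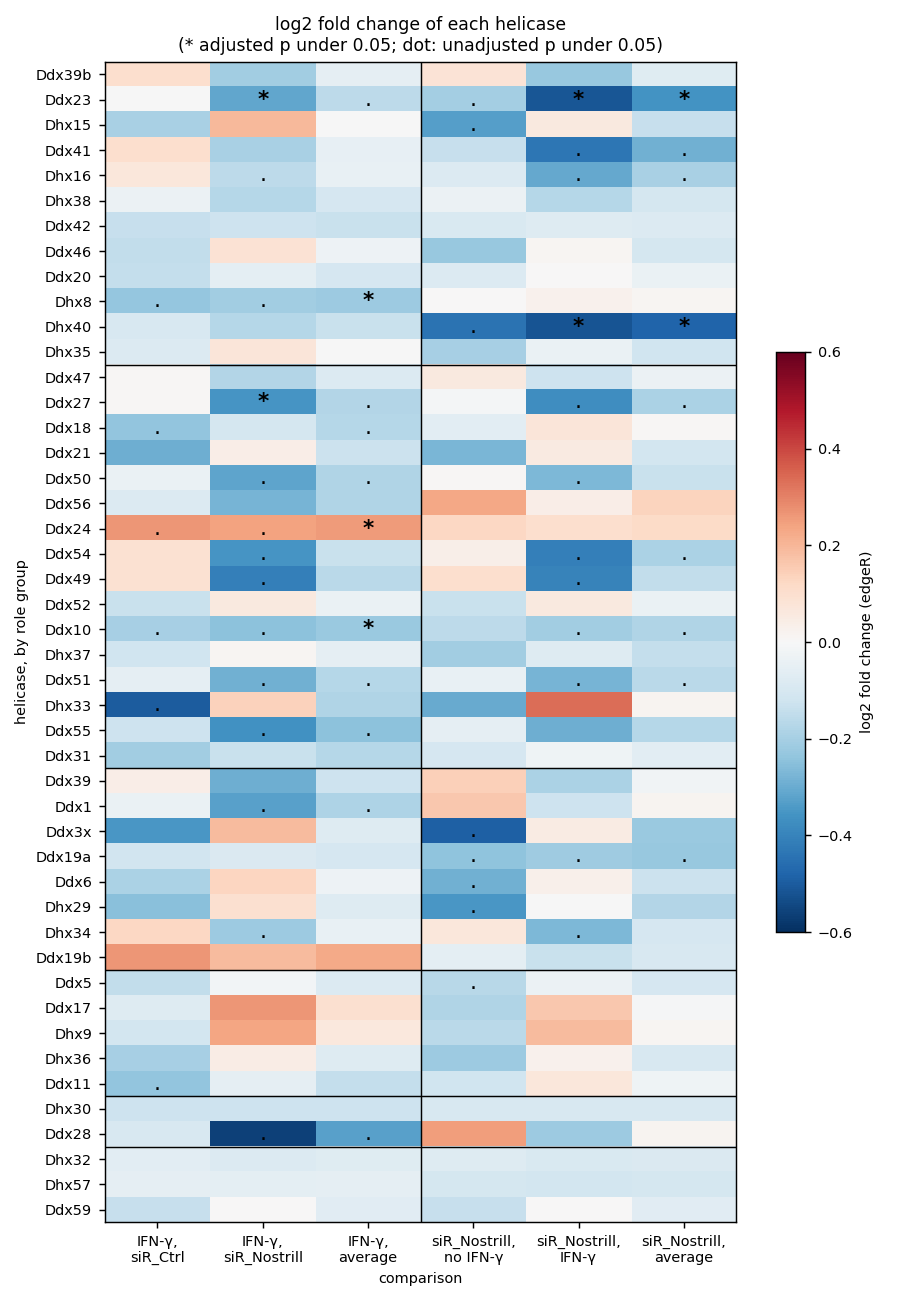
log2 fold change (colour) of the 46 helicases, in rows by role, in the 4 comparisons of single groups and the 2 averages, in columns. Asterisks mark an adjusted p under 0.05 and dots an unadjusted p under 0.05 (edgeR). Most cells are pale or blue, with 42 of 46 below 0 for IFN-γ and 38 of 46 below 0 for siR_Nostrill in the averages.

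Most helicases changed little. The log2 fold changes ranged from -0.33 to 0.25 for IFN-γ and from -0.48 to 0.13 for siR_Nostrill in the averages over both states. The medians were small and below 0, at -0.10 for IFN-γ in siR_Ctrl, -0.11 in siR_Nostrill cells, -0.10 for siR_Nostrill without and -0.09 with IFN-γ. The medians over all genes tested were at -0.0085, -0.00056, 0.0051 and -0.0026. Below 0 were 35, 30, 34 and 29 of the 46, against 6141, 5962, 5875 and 6021 of the 11900 genes. The median over the members stayed below 0 in these 4 comparisons under the alternative tests, filters and scalings and in the fits that left out 1 library. Removal of the length trend moved it to -0.05, -0.11, -0.04 and -0.11.

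By role, the 16 ribosome assembly helicases had 1 called lower and 1 called higher with IFN-γ in the average (Ddx10 and Ddx24), against 2.4% and 6.81% of all genes. Of the 16, 15 were below 0, with a median of -0.17, against 6538 of the 11900 genes and a median of -0.02. For siR_Nostrill 0 of them were called in the average by edgeR, against 2.16% of all genes, with 4 lower at an unadjusted p under 0.05, against 8.21%. DESeq2 called Ddx27 and Ddx10 lower, against 3.32% of its genes called lower. For siR_Nostrill 12 were below 0 and the median was -0.12, against 6265 of the 11900 genes and a median of -0.01. The 12 spliceosomal helicases had 1 called lower for IFN-γ (Dhx8), against 2.4%, with 12 of 12 below 0 and a median of -0.08. For siR_Nostrill they had 2 called lower (Ddx23 and Dhx40), against 1%, with 11 of 12 below 0 and a median of -0.11. That count depends on listing Dhx40 with its spliceosomal relatives, and the role groups were chosen with earlier results of these data known. The 8 helicases of export, translation and decay had 0 called in either average and medians of -0.08 and -0.11. The 5 of transcription, structured RNA and R-loops, a group with Ddx5, Ddx17, Dhx9, the G-quadruplex helicase Dhx36 and the DNA helicase Ddx11, also had 0 called, with medians of -0.08 and -0.03. The 2 mitochondrial members, Ddx28 and Dhx30, and the 3 remaining, Ddx59, Dhx32 and Dhx57, had 0 called. In roles with 0 calls in the averages by edgeR, 2 members were lower at an unadjusted p under 0.05 for IFN-γ, against 8.48% of all genes, and 1 for siR_Nostrill, against 8.21%, and DESeq2 called Ddx19a for siR_Nostrill.

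Genes that work with the helicases were counted beside them, in the averages. For IFN-γ the shares over all genes were 2.4% called lower and 6.81% higher by edgeR, 8.48% lower and 11.5% higher at an unadjusted p under 0.05, and 3.73% called lower and 7.39% higher by DESeq2. For IFN-γ, edgeR called 1 of 20 spliceosome partners lower and 0 of 20 ribosome assembly partners (6 lower at an unadjusted p under 0.05, with 4 called lower by DESeq2). It called 1 of 20 decay and export partners higher and 2 of 15 G-patch proteins and other DEAH cofactors higher. Of 21 tested relatives with other symbols, such as the eIF4A proteins, 3 were called higher. The 3 RIG-I-like receptors were called higher with each siRNA, with median log2 fold changes of 1.58 in siR_Ctrl and 1.44 in siR_Nostrill cells. For siR_Nostrill, edgeR called 0 genes in each of these lists, against 2.16% of all genes. The shares over all genes were 8.21% lower and 8.34% higher at an unadjusted p under 0.05, and 3.32% lower and 3.32% higher by DESeq2. At an unadjusted p under 0.05, 5 spliceosome partners, 3 ribosome assembly partners, 1 decay and export partner, 4 cofactors and 3 relatives were lower, while 1 relative and the 3 RIG-I-like receptors were higher. DESeq2 called 2, 1, 0, 1 and 2 of these lists lower, in that order, and 2 RIG-I-like receptors higher.

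Of 5 family rows outside the membership rule, Ddx60, Ddx58 and Dhx58 rose with IFN-γ within each siRNA. Ddx60, an antiviral helicase below the floor, had mean FPKM of 0.157 in siR_Ctrl, 0.657 in siR_Ctrl + IFN-γ, 0.190 in siR_Nostrill and 0.777 in siR_Nostrill + IFN-γ cells. Its log2 fold changes for IFN-γ were 2.19 ± 0.29 and 2.07 ± 0.28 (adjusted p = 5.26e-04 and 6.91e-04, edgeR). Ddx58 had 8.12, 18.7, 8.74 and 25.1 FPKM in the same order, and Dhx58 had 1.56, 4.43, 2.54 and 6.38. The germline helicases Ddx25 and Ddx4 had mean FPKM of 0.0417 and 0.00333 and were not tested.

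Fold changes followed transcript length in the members as in all genes. The members' effective length had a median of 3107 bases, from 1428 to 6383, against 2678 over all genes tested. Across the 46 members the Spearman correlation of log2 fold change with length was -0.40 for IFN-γ in siR_Ctrl, 0.57 for IFN-γ in siR_Nostrill, -0.57 for siR_Nostrill without and 0.36 with IFN-γ. Over the 11900 genes it was -0.42, 0.48, -0.65 and 0.26. These are correlations across genes, which share libraries and are not independent replicates. For IFN-γ the longer members (23) had a median of -0.14 in siR_Ctrl and -0.02 in siR_Nostrill cells, and the shorter members (23) of -0.07 and -0.20.

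In 3 of the 4 comparisons that relation across the members rested on single libraries. Without siR_Ctrl replicate 1, the correlation across the members was 0.22 for IFN-γ in siR_Ctrl cells (0.14 over all genes) and -0.03 for siR_Nostrill without IFN-γ (-0.34 over all genes). Without siR_Ctrl + IFN-γ replicate 2, it was 0.09 for IFN-γ in siR_Ctrl cells (0.04 over all genes) and -0.0024 for siR_Nostrill with IFN-γ (-0.19 over all genes). For IFN-γ in siR_Nostrill cells it ranged from 0.48 to 0.64 over the fits that left out 1 of the 6 libraries compared. The medians of the longer and shorter members for IFN-γ in siR_Ctrl cells were -0.05 and -0.08 without the former library and -0.09 and -0.07 without the latter.

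**Figure D4:**
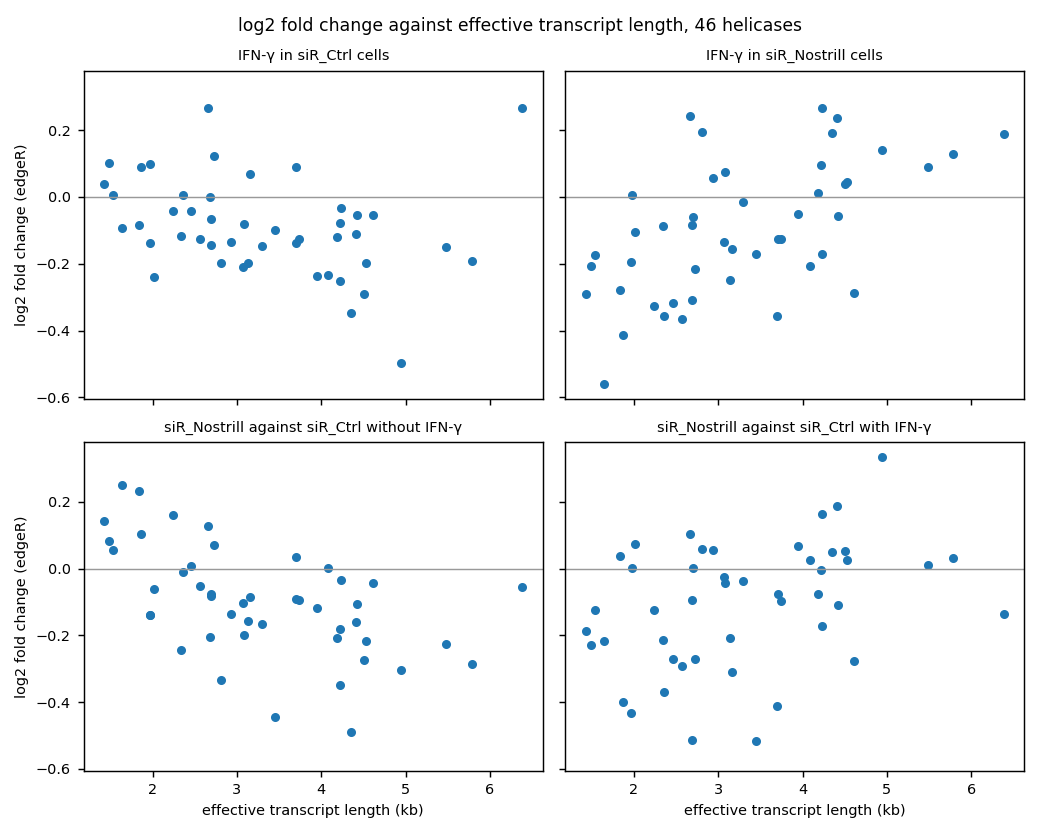
log2 fold change (edgeR) of the 46 helicases against effective transcript length in kb, in the 4 comparisons of single groups. The cloud falls to the right for IFN-γ in siR_Ctrl cells and for siR_Nostrill without IFN-γ, with Spearman correlations of -0.40 and -0.57, and climbs to the right in the other 2, with 0.57 and 0.36. The correlations of -0.40 and -0.57 became 0.22 and -0.03 without siR_Ctrl replicate 1, and those of -0.40 and 0.36 became 0.09 and -0.0024 without siR_Ctrl + IFN-γ replicate 2.

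With that trend removed from each library, more helicases were called, and so were more genes. The counts of helicases were 3 for IFN-γ in siR_Ctrl (background 11.1%), 14 in siR_Nostrill cells (19%), 1 for siR_Nostrill without IFN-γ (3.39%) and 7 with it (12.9%). In the averages they were 10 for IFN-γ (20%) and 6 for siR_Nostrill (13.6%). Of the 14, Ddx24 was higher and 13 were lower, among them Ddx23, Ddx27, Ddx1, Ddx10 and Dhx8. Of the 7, which were all lower, Ddx23 and Dhx40 belonged to the calls made without the correction, and Ddx27, Ddx49, Ddx54, Dhx16 and Ddx41 were added. DESeq2 without the correction called 8 for IFN-γ in siR_Nostrill cells (background 10.5%), 6 for siR_Nostrill with IFN-γ (5.46%), 6 for IFN-γ in the average (11.1%) and 7 for siR_Nostrill in the average (6.65%). The part of length in the uncorrected values cannot be told apart from a change of long or short transcripts by these data.

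The responses to IFN-γ in the 2 siRNAs, which share no library, had a Spearman correlation of -0.41 over 46 members and 0.02 over all genes. Both were below 0 for 21 members and above 0 for 2, and over all genes 23.6% were below 0 in both. The effects of siR_Nostrill without and with IFN-γ correlated at -0.34 over the members and -0.07 over all genes. Neither negative value held without the libraries that stood apart. Without siR_Ctrl replicate 1 the correlations over the members were 0.20 for IFN-γ and 0.12 for siR_Nostrill (0.49 and 0.18 over all genes), and without siR_Ctrl + IFN-γ replicate 2 they were 0.08 and -0.0064 (0.43 and 0.38 over all genes).

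By library, the members stood lowest in the 3 siR_Nostrill + IFN-γ libraries and highest in 2 of the 3 siR_Ctrl libraries, while siR_Ctrl replicate 3 lay among those of the other groups. The median deviation of the 46 from their own means was 0.12, 0.12 and 0.04 on the log2 scale in siR_Ctrl, and 0.05, 0.00 and -0.03 in siR_Ctrl + IFN-γ. It was -0.04, 0.01 and 0.05 in siR_Nostrill and -0.06, -0.08 and -0.14 in siR_Nostrill + IFN-γ cells. In siR_Ctrl cells 31 to 38 of 46 lay above their mean, and in siR_Nostrill + IFN-γ cells 3 to 16 did. The median log2 fold change of the members moved by over 1.5 times without 1 library in each of 3 comparisons. It was -0.0676 for IFN-γ in siR_Ctrl cells without siR_Ctrl replicate 1, -0.0743 for IFN-γ in siR_Nostrill cells without siR_Nostrill replicate 3, and -0.0632 for siR_Nostrill without IFN-γ when siR_Nostrill replicate 1 was left out.

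**Figure D5:**
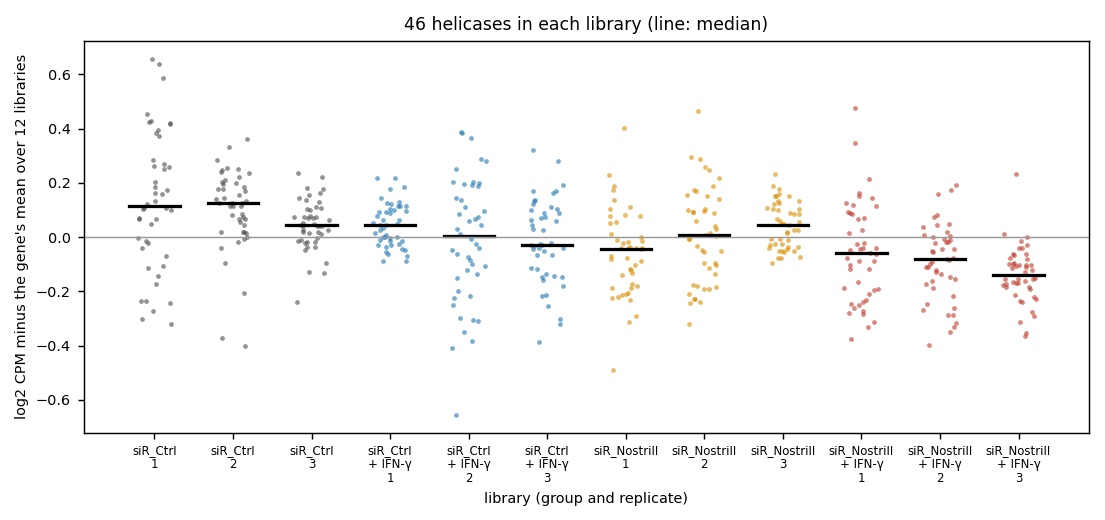
log2 CPM of each of the 46 helicases minus its mean over the 12 libraries (points) and the median of the 46 (line), by library. The medians run from 0.12 in siR_Ctrl replicates 1 and 2 to -0.14 in siR_Nostrill + IFN-γ replicate 3, with wide overlap of the points.

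Promoters were searched for interferon elements, since Ddx24 rose with IFN-γ. RefSeq promoter windows of 300 bases (250 before and 50 after the start, GRCm38.p6) were at hand for 41 members, 52 windows in all. The GAS element, TTCNNNGAA on either strand, was in 4 windows (7.69%), those of Ddx42, Ddx51, Ddx56 and Dhx35, against 8.30% of 32851 windows. The ISRE, searched on either strand as TTTC, any 2 bases and TTTC, was in 2 windows (3.85%), both of Ddx49, against 3.44%. Neither was in the window of Ddx24. The 250 bases upstream of its start, in lower case since no match was found (chr12:103425848-103426097, minus strand, 5′ to 3′), are shown as those of the one helicase called higher.
Ddx24: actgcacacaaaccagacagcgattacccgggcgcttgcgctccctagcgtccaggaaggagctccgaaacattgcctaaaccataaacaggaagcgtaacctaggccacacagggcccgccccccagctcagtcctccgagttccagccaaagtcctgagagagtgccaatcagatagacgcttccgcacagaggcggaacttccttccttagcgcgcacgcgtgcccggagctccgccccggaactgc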

How the data were processed

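RNA of 12 libraries, 3 in each of 4 groups, was sequenced on a DNBSEQ platform. The authors filtered reads with SOAPnuke and aligned them to GRCm38.p6 with HISAT2 and Bowtie2. They deposited an estimated count, an FPKM and a TPM for each of 15002 genes, all listed as mRNA. The counting tool was not given in the sources used here, nor was its use of strand. In the deposited FPKM the authors corrected for length and library size, and their deposited TPM has almost one total over all libraries. Columns of the authors' own comparisons were not used.

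Estimated counts were rounded and tested with edgeR 4.0.16 in R 4.3.3 (quasi-likelihood test, TMM, default filter on low counts, 12 libraries in one fit, Benjamini-Hochberg adjustment over 11900 genes, threshold 0.05). SE was the absolute log2 fold change over the root of F. The depth per library was 17824306 to 19093204 reads. On the log2 scale the Poisson error of a member's count in one library, taken at its mean count, had a median of 0.037 and was at or above the within-group SD for 2 of 46 members, Ddx59 and Dhx34. The study describes biological triplicates. The labels do not name separate cultures, so the p-values measure the spread between these libraries. There were 7 comparisons. The averages weight both states equally.

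Alternatives were DESeq2 1.42.0, its size factors in edgeR, other filters on low counts, the replicate number of the labels as a block, fits on the compared groups alone, removal of the length trend (lowess, span 0.3), another floor for members, and each of the 12 libraries left out. Named in full were members called in any comparison, the 6 highest and 3 lowest by mean FPKM, the 3 with the smallest p in each comparison, and paralog pairs. Members, role groups and partner lists were chosen with earlier results of these data known. The fits were also run on simulated data with larger changes, a fixed spread and no length trend, which does not test calls of the size reported here. Coordinates and promoters are from RefSeq (GRCm38.p6) and 3′UTRs from GENCODE vM21. A 3′UTR match that enters the counts is not reported here.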

Additional observations from a re-analysis of the deposited data

How the results depend on the processing

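The Wald test of DESeq2 called more helicases than edgeR in 6 of 7 comparisons: 2 for IFN-γ in siR_Ctrl, 8 for IFN-γ in siR_Nostrill cells, 2 for siR_Nostrill without IFN-γ, 6 with it, 6 for IFN-γ in the average and 7 for siR_Nostrill in the average. Removal of the length trend gave 3, 14, 1, 7, 10 and 6 in the same order. Fitting only the groups compared gave 8 for IFN-γ in siR_Nostrill cells and 0 for siR_Nostrill with IFN-γ. With no filter on low counts 1 helicase was called for siR_Nostrill with IFN-γ and 1 for IFN-γ in the average. The interaction had 0 under each setting run. Over the fits that left out 1 library, which have fewer samples, the counts ranged from 0 to 0 for IFN-γ in siR_Ctrl, 0 to 4 for IFN-γ in siR_Nostrill cells, 0 to 0 for siR_Nostrill without IFN-γ, 0 to 2 with it, 0 to 0 for the interaction, 0 to 3 for IFN-γ in the average and 2 to 3 for siR_Nostrill in the average. The cause of the other shifts was not tested. No log2 fold change changed sign in a comparison in which it was called. Of the log2 fold changes of named helicases counted under the alternatives, 1205 stayed on their side of the threshold, 34 gained a call and 56 lost it. A further 1 that was never called, the interaction of Dhx8 with the length trend removed, changed sign by more than its SE. This tally leaves out the fits on the compared groups alone, in which Ddx23 and Dhx40 lost their calls for siR_Nostrill with IFN-γ.

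The replicate number as a block gave 1 helicase called for siR_Nostrill with IFN-γ, where Dhx40 lost its call, and 2 for IFN-γ in the average, where Dhx8 did (adjusted p = 0.0563 and 0.0754, edgeR). It ended no other call. Libraries with the same number correlated from -0.495 to 0.725 in their deviations from the group mean (18 pairs) and others from -0.813 to 0.769 (36 pairs), so the numbers were not taken to pair the libraries.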
